A study of Mus musculus with 4 samples.

Results

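The Reg genes encode small secreted proteins with a C-type lectin domain. The family described here is the 6 rows of the deposited table with the symbols Reg1, Reg2, Reg3a, Reg3b, Reg3d and Reg3g, out of 24940 genes. They were chosen by symbol, in view of how their levels ran across the 4 libraries, so the comparison of knockdown with control only describes them. No p-value is printed for a member. The calls and counts at p thresholds given below describe the fits and are no test of the members. Total RNA was sequenced from islets of Langerhans of male mice aged 3 to 4 months on a low-fat chow, each library being a pool of about 300 islets from 2 to 3 mice. Control replicates 1 and 2 came from non-transgenic mice and knockdown replicates 3 and 4 from Tafazzin-knockdown mice. Because the controls lack the transgene, its own effect and that of Tafazzin depletion cannot be told apart.

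Reg proteins are made mainly by the acinar cells of the exocrine pancreas and by the gut epithelium. Reg1 and Reg2 encode pancreatic stone proteins, also called lithostathines, and were named for their appearance in regenerating islets. The Reg3 genes encode the pancreatitis-associated proteins. Several of these bind bacterial cell walls, and their transcription is raised by cytokines that act through the transcription factor STAT3, as in pancreatitis. Isolated islets carry some attached acinar tissue, so acinar transcripts are commonly read in them.

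The 6 genes lie side by side within 97.99 kb of mouse chromosome 6 (build mm10, coordinates of the deposited table), in the order Reg3b, Reg3d, Reg3a, Reg2, Reg1, Reg3g. Reg3b (NM_011036) spans 78370885 to 78373466 on the plus strand. Reg3d (NM_001161741) spans 78375874 to 78378865 on the minus strand. Reg3a (NM_011259) spans 78380709 to 78383839 on the plus strand. Reg2 (NM_009043) runs from 78405155 to 78408099 and Reg1 (NM_009042) from 78425983 to 78428668, both on the plus strand. Reg3g (NM_011260) runs from 78466269 to 78468874 on the minus strand. None of them overlaps another gene of the table, and each has 6 exons in its GENCODE M21 model with the longest coding sequence. The seventh family member, Reg4 on chromosome 3 (98222156 to 98236748), held 0 reads in every library, which allows a level of up to 0.370 to 0.436 units if 3 reads are taken as the limit.

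At the level of coding sequence, Reg1 and Reg2 were the closest pair, with 82.6% identical bases over 495 aligned positions, and Reg3b and Reg3g followed with 76.4%. Reg2 and Reg3g were the most distant, with 61.2%. The longest run of identical bases shared by 2 of these 6 transcripts was 35 bases, between Reg3b and Reg3g. The read length is not given in the sources used here, so reads that 2 members could share are not known.

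The 60 bases before each start site are shown because 4 of the 6 genes carry the letters TATAAA there, the core of a TATA box, in capitals. The sequences are RefSeq promoters on GRCm38.p6, printed 5′ to 3′ on the strand of the gene.
Reg1: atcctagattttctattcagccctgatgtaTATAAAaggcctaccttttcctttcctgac
Reg2: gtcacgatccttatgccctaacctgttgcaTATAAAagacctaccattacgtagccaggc
Reg3b: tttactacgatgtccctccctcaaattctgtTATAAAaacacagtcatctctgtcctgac
Reg3g: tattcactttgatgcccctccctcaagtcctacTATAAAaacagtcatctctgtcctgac
Reg3a: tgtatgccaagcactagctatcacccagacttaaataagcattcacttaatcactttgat
Reg3d: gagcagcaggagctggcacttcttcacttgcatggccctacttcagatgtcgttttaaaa

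TATAAA began 30 bases before the start in Reg1 and Reg2, 29 in Reg3b and 27 in Reg3g. On the plus strand, between 35 and 20 bases before the start, it was present in 1.84% of 32851 promoters. A RefSeq promoter was found for each of the 6 genes. The run of 20 bases shared by the upstream sequences of Reg3b and Reg3g was the longest of any pair. Reg3a and Reg3d had no TATAAA in this window, whose place depends on the annotated start. Any link between this motif and the level of a member was not tested.

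The letters TTCNNNGAA, a palindromic core bound by STAT proteins, were searched in the 250 bases before each start. They were found in Reg3b and Reg3d and in 7.02% of all promoters. The upstream sequence of Reg3b (chr6:78370635-78370884, plus strand) is shown because it holds both motifs, with TTCNNNGAA first and TATAAA second in capitals.
Reg3b: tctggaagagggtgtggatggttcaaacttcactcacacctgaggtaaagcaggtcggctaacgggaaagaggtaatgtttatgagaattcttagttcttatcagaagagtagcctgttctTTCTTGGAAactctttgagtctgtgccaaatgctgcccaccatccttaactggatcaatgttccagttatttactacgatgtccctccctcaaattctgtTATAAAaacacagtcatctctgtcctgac

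The E-box CANNTG, which basic helix-loop-helix factors such as those of acinar cells bind, was found upstream of all 6 genes and in 66.2% of promoters. The core TGGGAA, bound by RBPJ proteins, was found on either strand upstream of 5 members, Reg3b being the exception, and in 21.6% of promoters. In Reg3d a TGGGAA match overlaps the TTCNNNGAA match. These matches describe letters in a window and not binding.

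Levels are given in units of 1 read in 10000000 library reads. The counted region and the use of strand are not given in the sources used here. The libraries held 68823160 to 81073502 reads, so that 1 read was worth 0.123 to 0.145 units. Median-ratio size factors, which compare the typical gene between libraries, were 1.04 and 0.851 in control replicates 1 and 2. They were 1.08 and 1.06 in knockdown replicates 3 and 4, so the typical gene read lowest in control replicate 2. Levels and folds between single libraries are given without this scaling. The label of the knockdown was checked first. Taz, the gene of Tafazzin, stood at 23.1 and 15.4 units in the controls against 13.8 and 12.7 with the knockdown, in the direction of the labels, but was not called (limma adjusted p = 0.529). All 9 endocrine markers were read in every library, with summed levels of 88960 to 110180 units, led by the insulin genes.

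All 6 Reg genes ran in the same order across libraries: highest in control replicate 2, then knockdown replicate 3, then control replicate 1, and lowest in knockdown replicate 4. Of all 13531 tested genes 0.872% had this order. The groups overlapped in 6 of 6 members, against 60.6% of all tested genes, since each group held 1 library with a high and 1 with a low level. The 6 genes summed to 204 and 595 units in control replicates 1 and 2 and to 422 and 133 units in knockdown replicates 3 and 4. These sums rest on 1401, 4826, 3234 and 1047 reads.

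**Figure D1:**
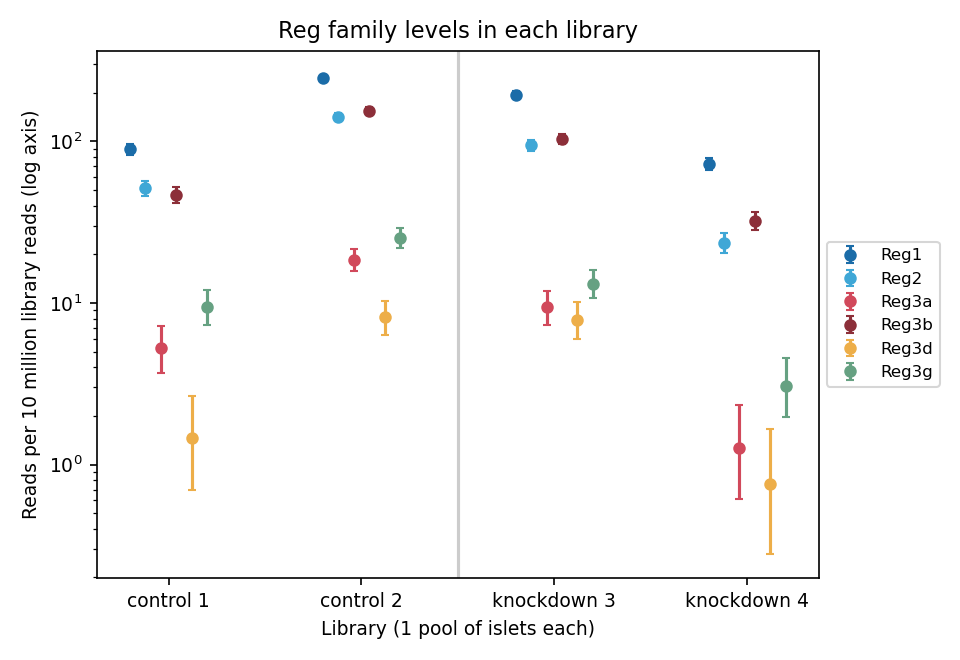
Level of each Reg gene in each library (y axis, reads per 10000000 library reads, log axis; x axis, library), with exact Poisson 95% intervals that cover counting error only. Every gene is high in control 2 and knockdown 3 and low in control 1 and knockdown 4, from 248 units for Reg1 in control 2 down to 0.763 units for Reg3d in knockdown 4.

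Reg1, a pancreatic stone protein gene and the most abundant member, stood at 89.5 and 248 units in control replicates 1 and 2 and at 194 and 72.2 units in knockdown replicates 3 and 4. Control libraries averaged 169 ± 112 units and knockdown libraries 133 ± 86.0 (SD, n = 2 per group). The gap between the 2 controls, 2.77-fold, was wider than that between the group means, a ratio of 0.790.

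Reg2, the second pancreatic stone protein gene, stood at 51.4 and 142 units in control libraries and at 94.4 and 23.5 units in the knockdown. Its knockdown libraries differed 4.01-fold from each other. Control replicate 2 was 1.504-fold above knockdown replicate 3 and control replicate 1 was 2.19-fold above knockdown replicate 4.

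Reg3b, which encodes pancreatitis-associated protein 1, stood at 46.5 and 154 units in control libraries and at 103 and 32.3 units in the knockdown. Without scaling by size factor, the low libraries of the 2 groups were 1.44-fold apart and the 2 high ones 1.49-fold.

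Reg3g encodes a lectin known for binding peptidoglycan of Gram-positive bacteria. It stood at 9.44 and 25.3 units in control libraries and at 13.2 and 3.05 units in the knockdown, on 65, 205, 101 and 24 reads. Knockdown replicate 3 lay between the controls and knockdown replicate 4 below both.

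Reg3a stood at 5.23 and 18.5 units in control libraries and at 9.39 and 1.27 units in the knockdown, on 36, 150, 72 and 10 reads. Its highest and lowest libraries were 14.5-fold apart, the widest range in the family. The exact Poisson 95% interval of the lowest, knockdown replicate 4, was 0.610 to 2.34 units and did not reach the 3.66 units at the lower bound of control replicate 1.

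Reg3d, related to the islet neogenesis-associated protein, was the least abundant member. It stood at 1.45 and 8.14 units in control libraries and at 7.82 and 0.763 units in the knockdown, on 10, 66, 60 and 6 reads. The intervals of its 2 high libraries overlapped (6.30 to 10.4 and 5.97 to 10.1 units), as did those of its 2 low ones (0.697 to 2.67 and 0.280 to 1.66). The place of these libraries within each pair was therefore not detectable at this depth.

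Per kb of gene span, the order of levels was Reg1, Reg3b, Reg2, Reg3g, Reg3a, Reg3d in each of the 4 libraries. The places of Reg3b and Reg2 depend on the length used. Reg2 has the longer span (2944 against 2581 bases) but the shorter GENCODE transcript (698 against 783 bases). Without scaling by length, Reg2 stood above Reg3b in control replicate 1, at 51.4 against 46.5 units. Reg1 averaged 56.2 ± 31.3 units per kb (SD over the 4 libraries), Reg3b 32.5 ± 21.6 and Reg2 26.4 ± 17.6. Far below these came Reg3g at 4.89 ± 3.59, Reg3a at 2.75 ± 2.36 and Reg3d at 1.52 ± 1.33 units per kb. The members rose and fell together across libraries, so these SDs do not measure the differences between members. Within a library the counting intervals of neighbours overlapped for Reg3b and Reg2 in control replicate 1 and for Reg3a and Reg3d in both knockdown libraries.

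In the limma fit across all genes the knockdown was compared with the control on log2(value + 1). Log2 fold changes are given relative to the median of all tested genes, 0.17 (-0.0048 after median-ratio scaling), whereas the test sets the unshifted change against 0. All 6 members lay below that median, at -0.49 for Reg1, -1.01 for Reg2, -0.71 for Reg3b, -1.29 for Reg3g, -1.35 for Reg3a and -0.43 for Reg3d. The median over the members was -0.86. Reg2, Reg3a and Reg3g were called lower at an adjusted p under 0.05, and 0 members were called higher. Among all tested genes 0.0443% were called lower and 2.49% higher, and nothing is read from this difference because the members were chosen on these values. Of the 6 genes called lower in the whole table, 3 were Reg genes, and they were also the 3 of those calls whose groups overlapped.

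The error behind these calls was not the members' own. The fit replaced each gene's spread by a trend over all genes at its level, which gave standard errors of 0.23 to 0.35. The members' own within-group SDs on the log2 scale were 1.01 for Reg1, 1.22 for Reg2, 1.37 for Reg3a, 1.18 for Reg3b, 1.5 for Reg3d and 1.12 for Reg3g. These were 4.22 to 5.05 times the SD of the trend. Across all tested genes the median own SD was 0.23, and 0.140% of genes had one above that of Reg1. With 2 libraries a group, the standard error of a difference on a gene's own spread equals this SD, so that the change was smaller than it in Reg1, Reg2, Reg3a, Reg3b and Reg3d. In Reg3g the change relative to the median was 1.15 times it, and the unshifted change 1.01 times.

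The calls depended on how the spread and the scale were set. With a pseudocount of 0.25, 3 members were again called lower (6 genes lower and 330 higher in the whole table). The edgeR test on the recovered reads called 0 members higher and 0 lower (1.29% and 0.148% of all genes), with 4 members at an unadjusted p under 0.05. DESeq2 called 0 members (83 genes higher and 11 lower in the whole table). At an unadjusted p under 0.05 it had 0 members and 729 of all 13531 tested genes. After median-ratio scaling limma also called 0 (1.12% of all genes higher and 0.155% lower), with 3 members at an unadjusted p under 0.05. With control replicate 1 left out, 6 members were called lower and 0 higher by limma (0.273% and 9.36% of all genes), and without knockdown replicate 3 it called 3 lower and 0 higher (0.0296% and 0.207%). Without control replicate 2 it called 0 members lower and 0 higher (0.436% and 2.67% of all genes), and without knockdown replicate 4 again 0 and 0 (0.0222% and 2.39%), with 1 member at an unadjusted p under 0.05 in each case.

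**Figure D2:**
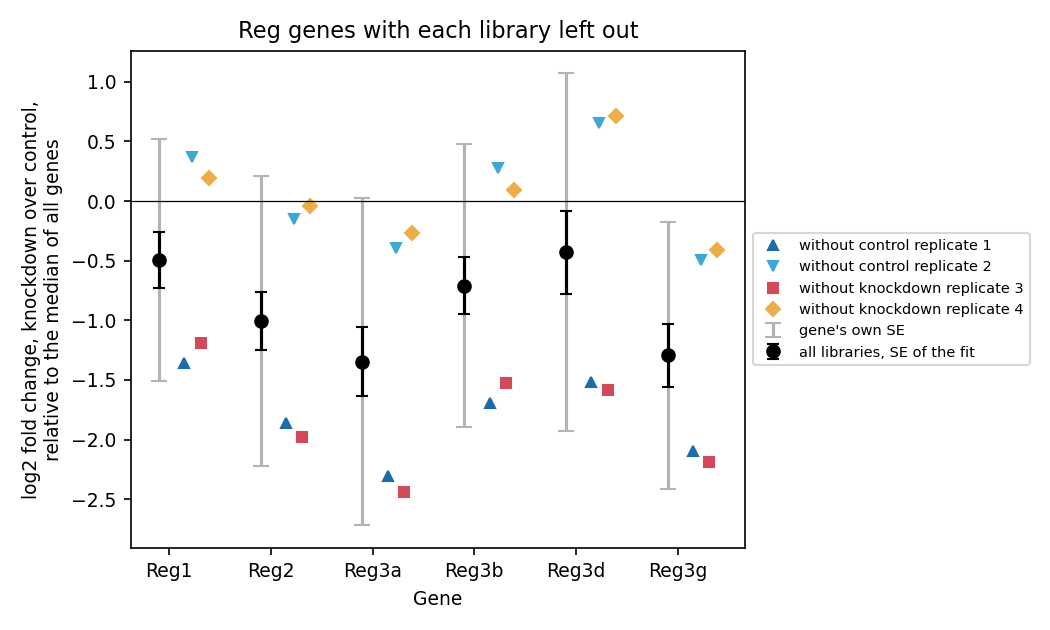
Log2 fold change of each Reg gene (y axis, knockdown over control, relative to the median of all genes; x axis, gene). Black points with bars show the fit of all 4 libraries with its standard error, grey bars the standard error from the gene's own spread, and coloured symbols the same value with 1 library left out. Leaving out control 2 or knockdown 4 brings Reg1, Reg3b and Reg3d above 0, and leaving out either other library takes all 6 further down.

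The size of the change, and in 3 members its direction, depended on single libraries. Across the 4 fits with 1 library left out, the log2 fold change ran from -1.98 to -0.04 for Reg2, from -2.44 to -0.27 for Reg3a and from -2.19 to -0.41 for Reg3g, which stayed below 0, whereas Reg1, Reg3b and Reg3d turned. The median over the members was -1.78 without control replicate 1 and also -1.78 without knockdown replicate 3. It was 0.07 without control replicate 2 and 0.03 without knockdown replicate 4.

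Digestive enzymes of acinar cells moved with the Reg genes across libraries. Of 27 listed enzymes 22 were tested, and 16 of these had the same order of libraries as the Reg genes. Ctrb1, a chymotrypsinogen and the most abundant, stood at 1001 and 2057 units in control libraries and at 1767 and 828 units in the knockdown. Cela1, an elastase, stood at 376 and 799 against 771 and 293 units. Both have their high and low libraries where the Reg genes have them. The 11 fixed acinar markers summed to 2601 and 5272 units in the controls and to 4507 and 2142 in the knockdown libraries. Of them 10 were read in every library, and Amy2a5, an amylase, was at 0 in all. The part of acinar cells in the Reg differences was not tested. In bulk samples fewer cells of a type and less RNA per cell cannot be told apart. Values of trypsinogens and amylases are uncertain, since these families have near-identical copies.

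The Reg genes varied over a wider range than the enzymes, although the lowest values of Reg3a and Reg3d rest on 10 and 6 reads. The highest library stood 3.43-fold (Reg1) to 14.5-fold (Reg3a) above the lowest in the Reg genes, with a median of 7.16-fold. In the 22 tested enzymes the range was 1.85-fold (Try10) to 3.34-fold (Amy2b), with a median of 2.54-fold, and in all tested genes the median was 1.51-fold. Try10 and Amy2b averaged only 2.20 and 1.07 units. Amy2b did not have the Reg order, being highest in control replicate 1 and lowest in knockdown replicate 3. The Reg genes as a sum ranged 4.47-fold and the enzymes as a sum 2.51-fold. None of the 22 enzymes was called, 2 had an unadjusted p under 0.05, edgeR called 0, and their median log2 fold change was -0.41.

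**Figure D3:**
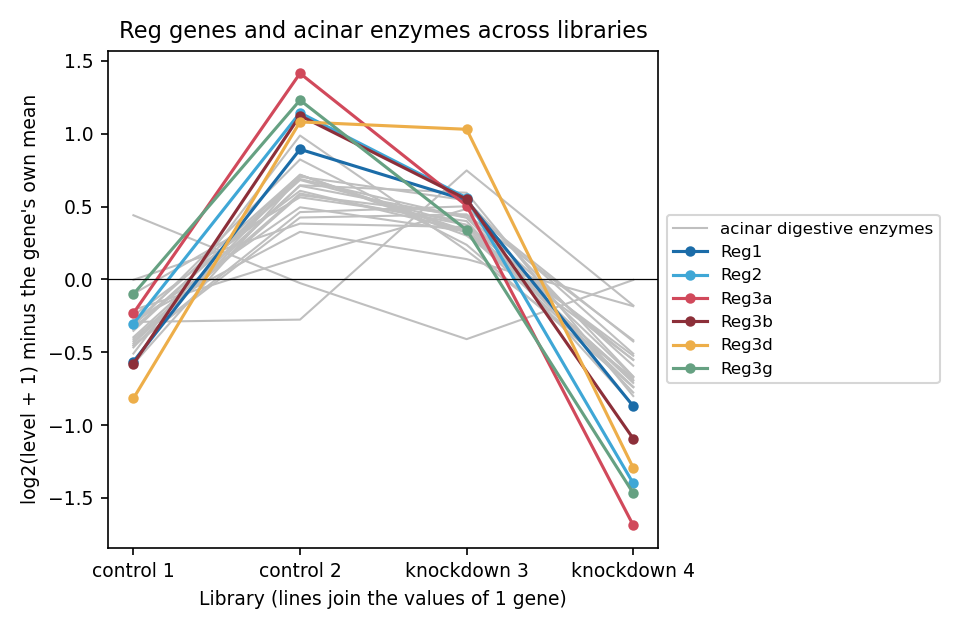
Profile of each Reg gene (coloured) and each of the 22 tested acinar digestive enzymes (grey) across the 4 libraries (x axis), as log2(level + 1) minus the gene's own mean (y axis). Both sets rise in control 2 and knockdown 3, and the Reg genes swing further, with an own within-group SD of 1.01 or more against a median of 0.72 in the enzymes.

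Set against the enzymes, the Reg genes still differed between libraries. Reg reads made up 5.31% of Reg plus enzyme reads in control replicate 1 (Wilson 95% interval 5.04% to 5.59%) and 7.35% in control replicate 2 (7.16% to 7.56%). They made up 6.21% in knockdown replicate 3 (6.01% to 6.42%) and 4.26% in knockdown replicate 4 (4.02% to 4.52%). The intervals cover counting error only. The 4 shares were apart from one another beyond it, yet the groups overlapped again, with knockdown replicate 3 between the controls. The mean log2 level of the Reg genes minus that of the tested enzymes was -1.85 and -1.11 for the controls, against -1.50 and -2.45 with the knockdown, in the same order of libraries.

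The members did not share this excess equally. Relative to the summed enzymes, Reg1 changed least, from 2.41% of their level in knockdown replicate 4 to 3.30% in control replicate 2, a 1.37-fold range. The range was 1.90-fold for Reg3b, 2.41-fold for Reg2, 3.31-fold for Reg3g, 4.82-fold for Reg3d and 5.80-fold for Reg3a. Knockdown replicate 4 was the lowest library by this measure for all 6 members. Control replicate 2 was the highest for all but Reg3d, where knockdown replicate 3 was. Counting error could cover some of these placings. Reg1 stood at 2.41% in knockdown replicate 4 and 2.47% in control replicate 1, on 568 and 616 reads. The lowest Reg3d library held 6 reads against 10 in control replicate 1, and the highest 60 against 66 in control replicate 2.

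The composition of the family reads differed most in knockdown replicate 4. Reg1 made up 54.3% of Reg reads there (Wilson 95% interval 51.2% to 57.2%), against 44.0%, 41.6% and 46.0% in control replicates 1 and 2 and knockdown replicate 3. Reg2 made up 17.7% there (15.5% to 20.1%) against 22.4% to 25.3% in the other libraries. Reg3a had its lowest share in the same library, at 0.955% (0.520% to 1.75%) against 2.23% to 3.11%. The share of Reg3b ran from 22.8% in control replicate 1 to 25.8% in control replicate 2.

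**Figure D4:**
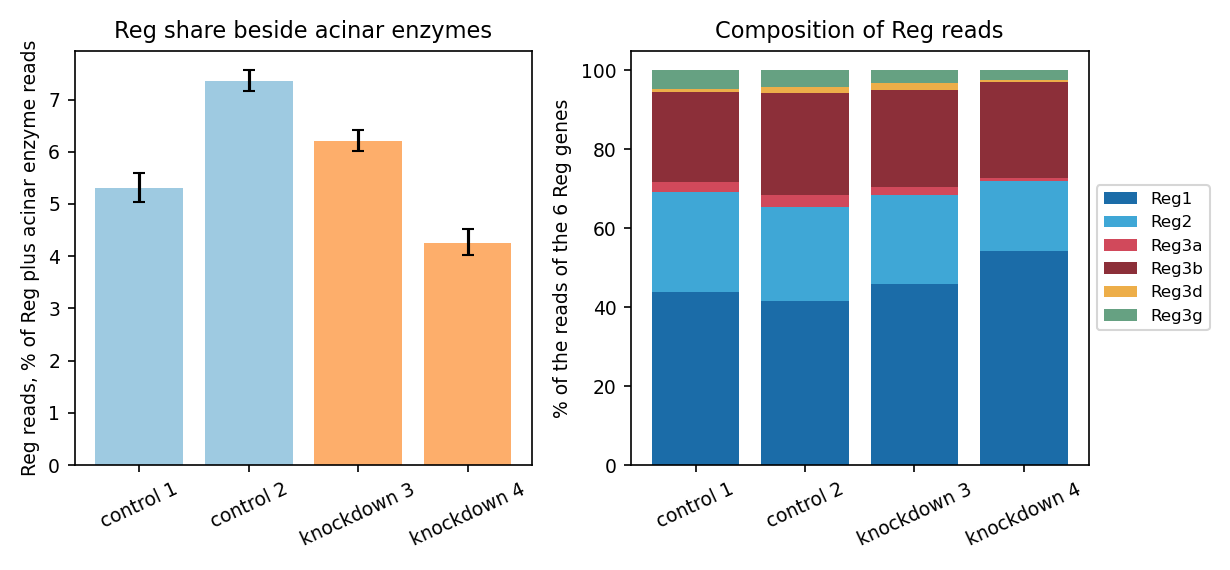
Left, reads of the 6 Reg genes as a percentage of Reg plus acinar enzyme reads (y axis) in each library (x axis), with Wilson 95% intervals for counting error: the values are 5.31%, 7.35%, 6.21% and 4.26%. Right, share of each member in the Reg reads of each library, with Reg1 at 54.3% in knockdown 4.

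Outside the family, the genes whose profiles over the 4 libraries were most like those of the Reg genes were all acinar. Likeness was the root mean square difference of log2(value + 1), each gene centred on its own mean, among 8306 genes with a mean of at least 10 units. Dmbt1, a secreted scavenger receptor protein of epithelia, was the nearest gene to Reg2 (0.18), Reg3a (0.39), Reg3b (0.16), Reg3d (0.34) and Reg3g (0.29). It stood at 78.2 and 190 units in control libraries and at 151 and 45.7 in the knockdown. For Reg1 the nearest were the elastases Cela3b (0.14) and Cela1 (0.15), followed by Dmbt1 (0.16). The further places went to Cela1, Cela2a, Cela3b, Sycn, Pnliprp2, Try5 and Rnase1, each on the lists of acinar genes used here. With 4 libraries such likeness describes these pools alone.

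Other acinar secretory genes ran the same way. Of 12 listed genes 8 were tested and 5 had the Reg order of libraries, with 0 called by limma (1 at an unadjusted p under 0.05) and 0 by edgeR. Sycn, the granule protein syncollin, stood at 46.9 and 81.7 against 78.5 and 29.4 units. Of 6 listed transcription factors of acinar cells 4 were tested, and 1, Gata4, had the order, against 0.872% of all tested genes. Limma called 0 of them (0 at an unadjusted p under 0.05) and edgeR 0. Ptf1a and Rbpjl averaged under 1 unit and were not tested. Gata4 and Nr5a2 averaged only 2.06 and 1.895 units, so no contrast with the secretory genes is drawn. Xbp1, a regulator of secretory capacity that endocrine cells also express, stood at 190 and 179 against 179 and 200 units, and Bhlha15 at 47.4 and 33.1 against 29.2 and 37.4.

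Transcripts of the STAT3 pathway, a known input of the Reg3 genes, did not have the Reg order of libraries. Since 0.872% of all tested genes had this order, a count of 0 in lists of this size is not informative. The activity of STAT3 was not measured, and its part in the Reg levels was not tested. Among its ligands 5 of 10 were tested, 4 were called higher and 0 lower, and 0 had the order. Il11, a cytokine of the interleukin 6 family, stood at 6.10 and 18.0 units in control libraries and rose to 59.5 and 43.9 with the knockdown (log2 fold change 2.00, SE 0.25; adjusted p = 1.88e-14, limma). Lif, leukemia inhibitory factor, rose to 21.4 and 16.3 units against 4.65 and 3.70 (adjusted p = 9.54e-10, limma). Il6 rose to 14.6 and 7.63 units against 2.03 and 2.96 (adjusted p = 2.49e-06, limma). Clcf1, which overlaps Gm45928, rose to 8.09 and 3.31 units against 0.872 and 1.48 (adjusted p = 0.00314, limma). In these 4 genes both knockdown libraries lay above both controls. Clcf1 was not called by edgeR (adjusted p = 0.0619) or after scaling (0.0890, limma). Without knockdown replicate 3, Il11 and Lif were still called (adjusted p = 4.54e-04 and 0.00174, limma), whereas Il6 and Clcf1 were not (0.209 and 0.9998). With no filter on low values 0 genes of the table passed, Il11 and Lif standing at 0.0811 and 0.0771.

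Of the 13 receptors and kinases of the pathway, 11 were tested and 1 was called higher, 0 lower. This was Osmr, the oncostatin M receptor, at 10.4 and 5.60 units with the knockdown against 2.33 and 2.22 (adjusted p = 0.00118, limma). Osmr was not called without knockdown replicate 3 (adjusted p = 0.875, limma) or after scaling (0.0542). Stat3 itself stood at 242 and 191 against 268 and 224 units. Jak1, a kinase at these receptors whose row overlaps Raver2, stood at 139 and 101 against 143 and 151.

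All 13 feedback genes and common targets of STAT3 were tested, 3 were called higher and 0 lower. Socs3, the feedback inhibitor of the pathway, rose to 58.9 and 48.8 units against 28.5 and 30.1 (log2 fold change 0.69, SE 0.25; adjusted p = 0.0264, limma). Junb, a transcription factor subunit, rose to 93.0 and 60.4 units against 35.02 and 38.6 (adjusted p = 0.00265, limma). Myc, a transcription factor of growth, rose to 20.3 and 12.7 units against 8.43 and 8.14 (adjusted p = 0.0347, limma). None of the 3 passed without knockdown replicate 3 (adjusted p = 0.9998 for each, limma). Without knockdown replicate 4 Socs3 and Junb did not pass either (adjusted p = 0.357 and 0.0975, limma), and Myc did not without control replicate 2 (0.0570), by edgeR (0.168) or after scaling (0.199). The most abundant of the list were Ccnd1, cyclin D1, at 142 and 87.2 against 116 and 123 units in a row that overlaps Oraov1, and Mcl1, a survival protein, at 69.7 and 59.7 against 85.4 and 81.6. Summed markers of 4 other cell types lay higher in both knockdown libraries. The 9 stellate cell and fibroblast markers summed to 102 and 109 against 315 and 250 units, and the 6 endothelial ones to 132 and 120 against 276 and 207. The 12 duct markers summed to 908 and 960 against 1769 and 1167 units, with Spp1, Sox9, Anxa3 and Krt19 called higher by limma. Krt19 was not called by edgeR, and neither Krt19 nor Sox9 by limma after scaling (adjusted p = 0.275 and 0.0568). The 6 macrophage markers summed to 13.2 and 17.1 against 29.5 and 24.9 units. Of these Lyz2 (1.60 and 0.37 against 6.78 and 5.60) and Cd14 (2.62 and 5.67 against 12.8 and 8.90) were called higher by limma. Cd14 was not called by edgeR or by limma after scaling (adjusted p = 0.114). The 0.37 units of Lyz2 in control replicate 2 lie at the limit of 3 reads. Of the other macrophage markers Cd68 stood at 4.65 and 8.14 against 5.74 and 7.12 units and Csf1r at 2.33 and 1.97 against 2.35 and 2.54, while Adgre1 and Itgam averaged under 1 unit. Their part in the increases of cytokine, acute-phase and lectin genes was not tested.

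**Figure D5:**
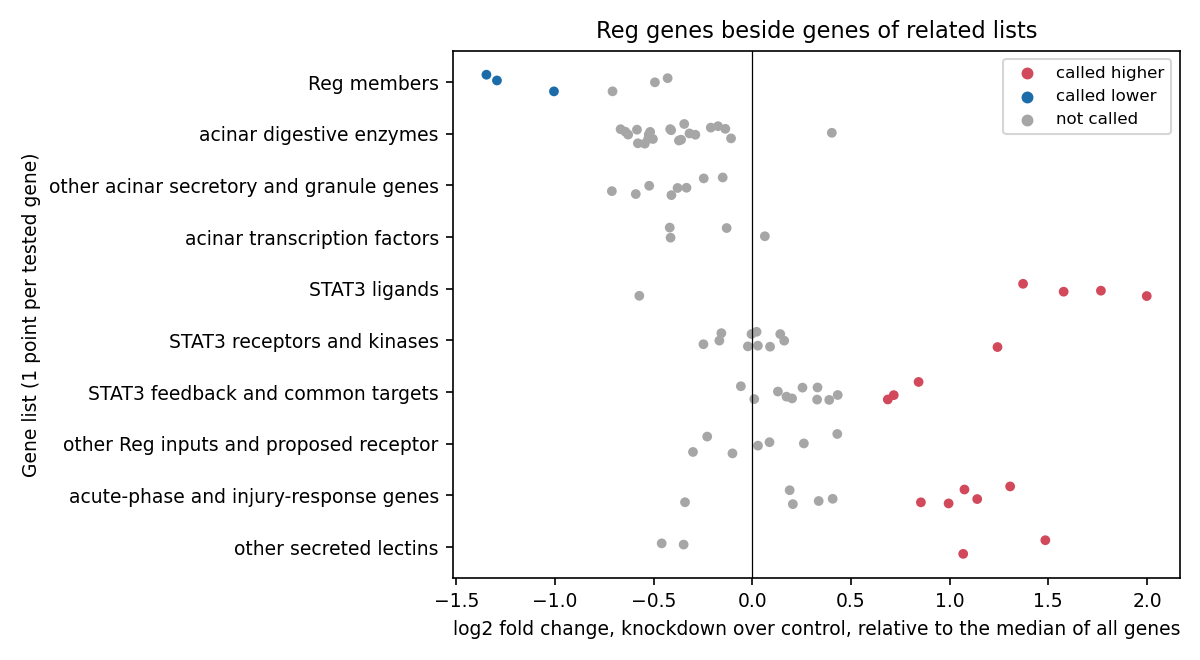
Log2 fold change of each tested gene (x axis, knockdown over control, relative to the median of all genes) for the Reg members and 9 related lists (y axis), coloured by the limma call. The Reg genes lie at -1.35 to -0.43, below or among the acinar genes, whereas 4 STAT3 ligands lie at 1.37 to 2.00.

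Further inputs of the family and its proposed receptor gave 0 calls by limma among 7 tested of 9 listed (1 at an unadjusted p under 0.05) and 0 by edgeR. Extl3, a glycosyltransferase proposed as a Reg receptor, stood at 44.8 and 30.6 against 44.1 and 34.1 units. Nr3c1, the glucocorticoid receptor, stood at 102 and 64.6 against 89.7 and 96.3.

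Acute-phase and injury-response genes, a group in which Reg3 genes are often counted, were split. Of 18 listed, 10 were tested, 5 were called higher and 0 lower, and 1, Nupr1, had the Reg order. By edgeR, and by limma after scaling, 2 were called higher, Lcn2 and C3. Lcn2, the siderophore-binding lipocalin 2, rose to 53.3 and 32.2 units against 18.6 and 14.1 (log2 fold change 1.14, SE 0.25; adjusted p = 3.09e-05, limma). Complement gene C3 rose to 31.8 and 16.3 units against 8.14 and 10.1, and Fgb, a fibrinogen chain, to 19.0 and 15.3 against 8.72 and 7.15 (adjusted p = 1.75e-04 and 0.00651, limma). None of these 3 passed without knockdown replicate 3 (adjusted p = 0.845, 0.9998 and 0.855, limma). By edgeR and after scaling the adjusted p was 0.0521 and 0.0547 for Fgb, 0.327 and 0.281 for Atf3 and 0.0730 and 0.0761 for Anxa1, the other two genes called higher by limma. Nupr1, a stress protein of pancreatitis, stood at 161 and 279 against 243 and 145 units, with overlapping groups. The most abundant of the list were Clu, clusterin, at 626 and 1333 against 1479 and 943 units, and Mt1, a metallothionein, at 191 and 257 against 299 and 270, which was not called (adjusted p = 0.663, limma).

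Other secreted lectins, among them galectins, which have a fold of their own, gave 2 higher calls among 4 tested of 14 listed. Lgals3, which encodes galectin-3, stood at 6.97 and 6.17 against 28.2 and 18.3 units, and Lgals1, galectin-1, at 4.65 and 6.17 against 15.6 and 12.5, both called higher (limma adjusted p = 1.02e-07 and 6.05e-04). Without knockdown replicate 3 neither was called (limma adjusted p = 0.0630 and 0.358). Lgals9 stood at 10.5 and 11.96 against 18.8 and 4.83 units, with knockdown replicate 3 highest and knockdown replicate 4 lowest.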

How the data were processed

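The deposited file is a single gene table with 1 column per library. Tools and build named per the submitters' processing notes, with no roles stated, are STAR 2.5.1b, HOMER 4.9, edgeR and mm10. Although FPKM is in its name, the values the authors deposited are a signal, reads scaled to 10000000 per library and not by length: 100% of them were whole multiples of 1 read (tolerance 0.01 reads), so whole reads were recovered. Rn45s, a ribosomal RNA precursor, took 41.6% to 42.6% of reads in each library, which lowers the depth for other genes.

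The 13531 genes averaging at least 1 unit and at least 200 bases long were compared by limma 3.58.1 (R 4.3.3) with a mean-variance trend on log2(value + 1), two-sided, adjusted by Benjamini-Hochberg and called under 0.05; prior degrees of freedom came out infinite. Alternatives were a pseudocount of 0.25, median-ratio scaling, no filter, edgeR 4.0.16 and DESeq2 1.42.0 on recovered reads, each library left out and, added after seeing the data, limma without the trend. Named genes are the members, Reg4, Taz, the called genes of each list (the 3 most abundant where over 4 were called) and its 2 most abundant genes. The 3 nearest profiles per member are also named. Chosen after their values were seen were Nupr1, Atf3, Anxa1, Amy2b, Try10, Amy2a5, Gata4, Nr5a2, Ptf1a, Rbpjl and the duct and macrophage markers. Motifs were chosen after seeing the sequences and searched on both strands unless stated, in 250 bases before the start. Members and lists were chosen with earlier results of these data known. The p-values of the main limma fit rest on the trend over all genes of the spread between these pools. They do not measure each gene's own spread.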

Additional observations from a re-analysis of the deposited data

How the results depend on the processing

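With a pseudocount of 0.25 the counts of calls stayed within 1.5 times those reported, and 3 Reg genes were called lower. Genes called higher and lower numbered 151 and 21 after median-ratio scaling, 174 and 20 by edgeR, 83 and 11 by DESeq2, 528 and 16 by limma without the trend, and 0 and 0 in limma when low values were kept, where 1484 genes had an unadjusted p under 0.05. Reg genes called lower numbered 0 after scaling, 0 with no filter (0 at an unadjusted p under 0.05), 0 by edgeR, 0 by DESeq2 and 2 without the trend; the cause was not tested. Leaving out 1 library in turn gave 28 to 1266 higher calls, 3 to 59 lower calls and 0 to 6 Reg genes called lower. In those 4 fits 1 group is a single library, assumed to vary like the other group. Reg genes called higher numbered 0 in every alternative. Reg1 turned to 0.37 and 0.20 without control replicate 2 and without knockdown replicate 4, Reg3b to 0.28 and 0.10, and Reg3d to 0.65 and 0.72. The leave-one-out ranges were -1.36 to 0.37 for Reg1, -1.70 to 0.28 for Reg3b and -1.58 to 0.72 for Reg3d. Against the 6 most abundant acinar genes the Reg difference was -4.32, -3.76, -4.11 and -4.88 in control replicates 1 and 2 and knockdown replicates 3 and 4, in the same order of libraries. On the plus strand alone TATAAA was in 7.59% and TGGGAA in 11.3% of promoters, against 12.4% and 21.6% on both strands. No paired analysis was possible because the groups share no replicate number. At 6 to 10 reads, Reg3d and the lowest Reg3a library limit what counting can show.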
